A study of Noccaea caerulescens and Thlaspi montanum with 10 samples.

Results

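In 6 field leaf libraries of the genus Noccaea, a small set of transcripts chosen for high read levels took up 9.69% to 19.9% of the reads. This set, the abundant shared contigs, holds 75 of 41841 contigs (0.179%), where a contig is a transcript sequence assembled from short reads. Its members were chosen by their read level: each had at least 500 CPM, that is, 500 reads for every 1000000 reads counted in that library, in every one of the 6 libraries. The rule, applied before the scaling used further below, treats the libraries alike and uses no plant label. It reads the levels themselves, however, so the levels are given here as a description. A contig that is low in 1 plant cannot belong to the set, which keeps out differences that come from such a low level. The rule sets no upper limit, so large differences above 500 CPM remain possible.

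The plants were Noccaea caerulescens subsp. firmiensis (firmiensis below), labelled a nickel hyperaccumulator, a Noccaea caerulescens population from Viviez (Viviez), and Noccaea montana (N. montana), both labelled as not accumulating nickel. Leaves of 2 individuals of each were taken where the plants grew, firmiensis at Puy de Wolf near Firmi in July, Viviez at Viviez in June and N. montana at Suc de Clava in the Ardèche in June of the same year. No treatment was given and plant age is not in the labels. The run label holds the number 4 for Viviez individual 2 and 5 for the other field leaf libraries. Whether this number marks a batch was not tested. Site coincides with plant, and the month with firmiensis, so these cannot be told apart from the plant. All reads were counted on contigs of a firmiensis assembly made from hydroponically grown plants that had received nickel, so the N. montana and Viviez reads were read against sequences of a relative. How far that lowers their counts was not tested.

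As background, the messenger RNA of a green leaf is dominated by a limited number of nuclear genes of photosynthesis. Among them are the small subunit of Rubisco, the enzyme that fixes carbon dioxide, the chlorophyll a/b-binding proteins that capture light, subunits of the photosystems, and enzymes of the Calvin cycle and of photorespiration. Transcripts of metallothioneins, small proteins that bind metals, and of translation and stress proteins can also be abundant in leaves. The contigs of this study carry numbers and are not paired with gene names in the files, so no member can be assigned to any of these groups, and the leaf label could not be checked against marker genes. Sequences and contig lengths were not used here. Levels are therefore reads per contig, not per length, and a long transcript reaches 500 CPM with fewer molecules than a short one.

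Between 59476715 and 68439128 reads were counted per library. Every member had at least 30127 reads in every library, where counting error alone is 0.576% of the value, small beside the differences between libraries given below. The rule was met by 176 contigs in both firmiensis libraries, 177 in both Viviez libraries and 145 in both N. montana libraries. The shared set was 42.6% of the firmiensis list, 42.4% of the Viviez list and 51.7% of the N. montana list. A further 46 contigs met it in firmiensis and Viviez only, with a median of 318 CPM in N. montana. Another 20 met it in firmiensis and N. montana only, and 11 in Viviez and N. montana only. The N. montana individual 1 library set the limit most often: it was the lowest library for 36 of the 75 members, and 14 contigs missed the rule there alone.

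The threshold cuts through a continuous range. Just inside, Ncfi_contig_29584 had 949.1 and 760.3 CPM in firmiensis leaves, 510.6 and 504.7 CPM in Viviez leaves and 517.0 and 636.3 CPM in N. montana leaves. Ncfi_contig_28066 had 1421.1 and 1042.0 CPM in firmiensis leaves, 1047.5 and 985.9 CPM in Viviez leaves and 510.2 and 784.8 CPM in N. montana leaves. Just outside, Ncfi_contig_7848 had 494.5 CPM in N. montana individual 1 and Ncfi_contig_9637 had 491.0 CPM in the same library, and both were above 500 CPM in the other 5. In all, 23 members had their lowest library below 600 CPM, 24 stayed at or above 1000 CPM, and 29 contigs outside had a lowest library of 400 CPM or more.

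The 75 contigs held 19.9% and 17.0% of all reads of firmiensis individuals 1 and 2. The Viviez individuals stood at 16.8% and 19.9%, and those of N. montana at 9.69% and 12.2%. Mean shares were 18.5 ± 2.05% for firmiensis, 18.4 ± 2.16% for Viviez and 11.0 ± 1.8% for N. montana (SD, n = 2 each). The share of each N. montana library lay below that of all 4 N. caerulescens libraries, which is a description: the smallest p that an exact two-sided permutation test allows is 0.333 for 2 libraries against 2 and 0.0667 for 2 against 4. In such leaf RNA, fewer cells of a type and less RNA per cell cannot be told apart. A single contig made up much of the Viviez share. Without Ncfi_contig_1579 the members held 18.1 ± 2.22% of firmiensis reads, 13.1 ± 0.41% of Viviez reads and 10.8 ± 1.83% of N. montana reads (SD, n = 2 each). The 3 plants then stood in that order without overlap between their libraries. Reads were unevenly spread over the set: the 5 members with the most reads took 25.7% and 24.6% of the members' reads in the firmiensis individuals, 39.4% and 52.9% in those from Viviez, and 21.6% and 25.1% in those of N. montana.

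**Figure D1:**
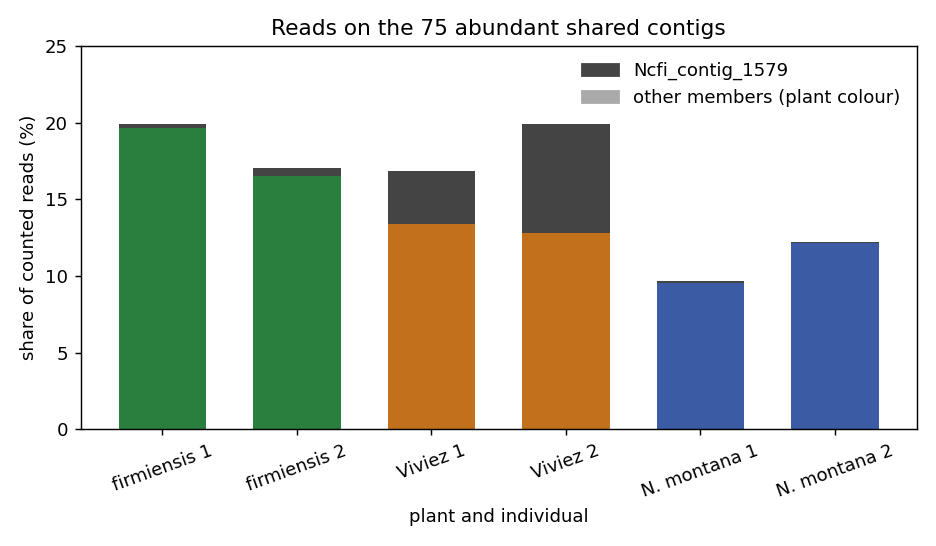
Share of counted reads (%) on the 75 abundant shared contigs in each library, 2 individuals of each plant, with the share of Ncfi_contig_1579 in dark grey above that of the other members. The N. montana bars reach 9.69% and 12.2%, below the 16.8% to 19.9% of the other 4 libraries, and the dark part is large in Viviez alone.

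Levels of single members are given below as normalised CPM (CPM after TMM scaling, which corrects for libraries dominated by a few transcripts), with individual 1 before individual 2. The contig with the most reads over the 3 plants, Ncfi_contig_1579, had 3047 and 5230 normalised CPM in firmiensis leaves, 35656 and 76464 in Viviez leaves and 1421 and 1090 in N. montana leaves. It was the top contig of both Viviez libraries and differed 70.2-fold between its highest and its lowest library, the widest range in the set. Ncfi_contig_23505 had 13952 and 9946 in firmiensis leaves, 5812 and 4779 in Viviez leaves and 6288 and 9501 in N. montana leaves. It was the member with the most reads in both N. montana libraries.

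Ncfi_contig_13140 had 15926 and 9545 normalised CPM in firmiensis leaves, 8196 and 8067 in Viviez leaves and 3285 and 4978 in N. montana leaves. Ncfi_contig_8694, the top contig of both firmiensis libraries, had 16990 and 12172 in firmiensis leaves, 6861 and 6757 in Viviez leaves and 1882 and 4201 in N. montana leaves. In both of these contigs the plants stood in the order firmiensis, Viviez, N. montana with no overlap between libraries, and the Viviez individuals were nearly equal. Ncfi_contig_997 followed another order, with 4035 and 5635 in firmiensis leaves, 8972 and 11607 in Viviez leaves and 2251 and 2408 in N. montana leaves. These 5 contigs have the highest mean levels of the set.

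**Figure D2:**
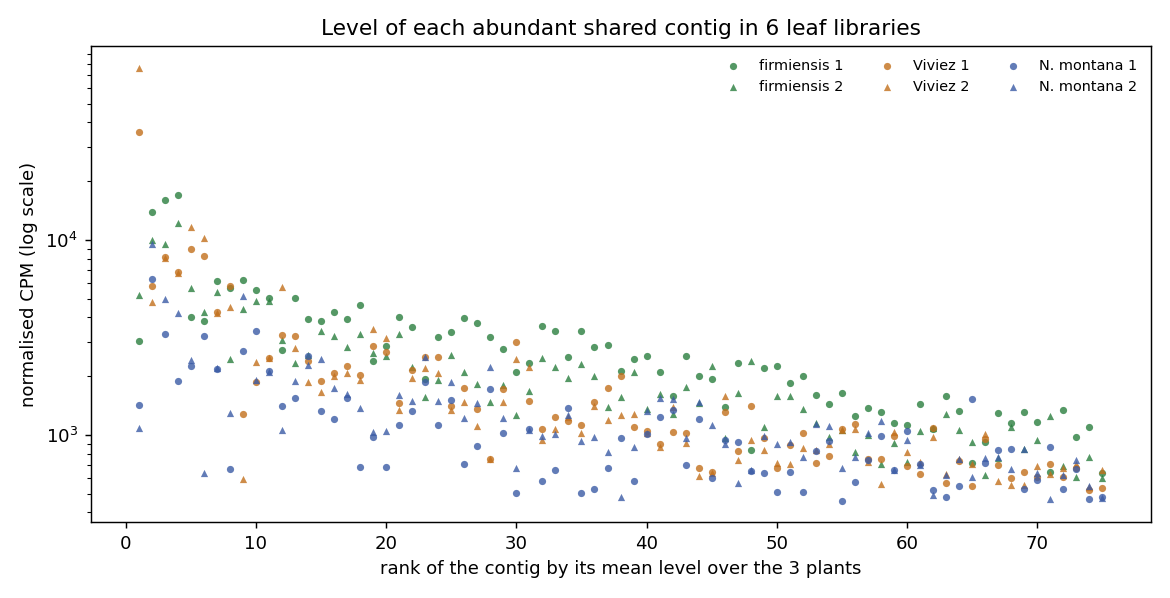
Normalised CPM (log scale) of each of the 75 contigs in the 6 libraries, with contigs ranked by their mean over the 3 plants, circles for individual 1 and triangles for individual 2. The firmiensis points lie above the N. montana points for most contigs, and Viviez reaches 76464 at rank 1.

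By plant mean, firmiensis was highest in 59 of the 75 contigs, Viviez in 12 and N. montana in 4. The order firmiensis, Viviez, N. montana was found in 38 contigs, firmiensis, N. montana, Viviez in 21, and Viviez, firmiensis, N. montana in 11. These counts rest on TMM scaling alone. The matching shares over all tested contigs were not worked out, so the counts are not read as particular to the set. The ratio of the highest to the lowest of the 6 libraries had a median of 2.89, with 11 contigs under 2-fold and 23 at 4-fold or more. The most even contig was Ncfi_contig_1812, at 638.8 and 604.2 normalised CPM in firmiensis leaves, 537.2 and 663.7 in Viviez leaves and 481.5 and 474.4 in N. montana leaves, a range of 1.4-fold. Ncfi_contig_709 ranged 1.53-fold, with 1582 and 1274 in firmiensis leaves, 1032 and 1385 in Viviez leaves and 1341 and 1519 in N. montana leaves. Ncfi_contig_150 ranged 1.6-fold, with 1938 and 1570 in firmiensis leaves, 2494 and 2212 in Viviez leaves and 1859 and 2517 in N. montana leaves. The libraries of all 3 plants interleaved in Ncfi_contig_709, while in Ncfi_contig_150 those of firmiensis lay below those of Viviez and N. montana overlapped both. With scaling to library totals in place of TMM, 21 contigs lay under 2-fold and 14 at 4-fold or more.

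Differences between plants were tested with the quasi-likelihood test of edgeR over all 32989 contigs that passed its filter on low counts. Benjamini-Hochberg adjustment was made over all of them. On simulated data the share of false calls exceeded the adjusted threshold in every comparison, so calls close to that threshold need caution. All 75 members were among the contigs tested. The rule used unscaled CPM, while the tests used TMM factors. These were 0.865 and 0.982 for firmiensis, 0.977 and 0.931 for Viviez and 1.11 and 1.17 for N. montana. After this scaling the limit of 500 CPM is lower in N. montana than in the other plants. That favours members with N. montana as the lower plant, and its part in the counts was not tested. Each comparison is read against the share of all tested contigs called. Since the rule keeps out contigs low in a plant, a count of members near or below that share says nothing about the set. That share was worked out for the main edgeR fit alone. Counts of members at an unadjusted p, with DESeq2 or in other fits have no such share beside them. Nothing about the set is read from those counts. The comparisons share libraries with each other, so their counts are not independent.

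The hyperaccumulator was set against Viviez, a relative of its own species. Of the 75 members, 5 were higher and 1 was lower in firmiensis, that is 8% of the members, against 14.2% of all tested contigs, of which 9.5% were higher and 4.69% lower. Over the whole set, the called members included, 63 had a log2 fold change above 0, against 51.7% of all tested contigs. The members' median was 0.68, against 0.04 over all tested contigs. Without firmiensis individual 1 the members' median was 0.44, with 54 above 0. The change lay within 2-fold for 51 members.

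Ncfi_contig_20964 had 6227 and 4442 normalised CPM in firmiensis against 1286 and 597.5 in Viviez. The log2 fold change came to 2.50 ± 0.58 (SE, edgeR adjusted p = 0.0398). Ncfi_contig_25071 had 1942 and 2246 in firmiensis against 643.0 and 637.4 in Viviez, a log2 fold change of 1.71 ± 0.38 (SE, edgeR adjusted p = 0.0375). In the other direction stood Ncfi_contig_1579, with the levels given above and a log2 fold change of -3.76 ± 0.73 (SE, edgeR adjusted p = 0.0261). In each of these contigs the libraries of the 2 plants did not overlap, which was a condition for naming them here. Leaving out any single firmiensis or Viviez library ended all 3 calls, with edgeR adjusted p from 0.0522 to 0.205, and the log2 fold change was -3.11 for Ncfi_contig_1579 without Viviez individual 2 and 3.15 for Ncfi_contig_20964 without Viviez individual 1. The number of members called was 0 in edgeR without firmiensis individual 1 or either Viviez individual (17, 9 and 6 at an unadjusted p under 0.05) and 2 without firmiensis individual 2, and it was 29 with DESeq2 on all libraries.

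The hyperaccumulator was next set against N. montana, a relative of another species. All 26 members called were higher in firmiensis, 34.7% of the set, against 15.8% of tested contigs called higher, 15.1% called lower and 30.9% called in either direction. None was called lower in edgeR, 0 members were lower at an unadjusted p under 0.05, and DESeq2 also called 0 lower, beside 49 higher. For unadjusted p and DESeq2 the share over all tested contigs was not worked out. A log2 fold change above 0 was found for 70 members, against 49.8% of all tested contigs. The members' median was 1.03 against 0.00 over all tested contigs, and 39 members were at least 2-fold higher in firmiensis. The 26 calls were modest in size, from 1.09 to 2.26 on the log2 scale.

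Ncfi_contig_8694 had the largest log2 fold change, 2.26 ± 0.57 (SE, edgeR adjusted p = 0.0299), with the firmiensis and N. montana levels given above. Ncfi_contig_924 had 5662 and 2440 normalised CPM in firmiensis against 666.8 and 1292 in N. montana, a log2 fold change of 2.05 ± 0.58 (SE, edgeR adjusted p = 0.0418). The firmiensis and N. montana libraries did not overlap in either contig, which was a condition for naming them here. The individuals of a plant differed by 1.4-fold to 2.32-fold in these contigs. The call of Ncfi_contig_8694 was lost without firmiensis individual 1, either Viviez individual or N. montana individual 1 (edgeR adjusted p from 0.0612 to 0.0777), and its log2 fold change was 2.96 without N. montana individual 2. That of Ncfi_contig_924 was lost without any library except firmiensis individual 2 (0.0612 to 0.143), and its log2 fold change was 1.32 without firmiensis individual 1. Most of the 26 calls were lost when any single library except firmiensis individual 2 was left out, and all of them without firmiensis individual 1. The members' median log2 fold change was 0.70 and 1.16 without firmiensis individuals 1 and 2. It was 1.03 without either Viviez individual, and 0.94 and 1.11 without N. montana individuals 1 and 2. With library totals in place of TMM, 16 were called, and the median log2 fold change was 0.69 for the members and -0.30 over all tested contigs.

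Viviez was set against N. montana, the plants labelled as not accumulating nickel. Here 8 members were higher and 2 lower in Viviez, 13.3% of the set, against 36.6% of all tested contigs, of which 16.1% were higher and 20.5% lower. Of the 75 members, 61 lay within 2-fold, and the median absolute log2 fold change was 0.47, against 1.05 over all tested contigs. The rule, by keeping out contigs that are low in a plant, favours small values here, so nothing is read from them. The members' median signed value was 0.22 with 50 members above 0, against -0.08 with 47.7% above 0 over all tested contigs. It was 0.48 without N. montana individual 2. When libraries were scaled to their totals it was -0.04 with 36 members above 0, against -0.33 over all tested contigs. The members' median thus lay above that of all tested contigs under both scalings. Its sign changed with the scaling, so no direction of the set between the plants is given.

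Ncfi_contig_1579 had the largest difference of the set, a log2 fold change of 5.48 ± 0.79 (SE, edgeR adjusted p = 0.00481), and passed in all 12 alternatives with an adjusted p of at most 0.0225, at 4.84 on the log2 scale without Viviez individual 2. Ncfi_contig_924 had 5816 and 4523 normalised CPM in Viviez against 666.8 and 1292 in N. montana, a log2 fold change of 2.40 ± 0.59 (SE, edgeR adjusted p = 0.0238). Ncfi_contig_997, described above, was higher in Viviez by 2.14 ± 0.44 on the log2 scale (SE, edgeR adjusted p = 0.0137). Lower in Viviez were Ncfi_contig_20964 and Ncfi_contig_18075. Ncfi_contig_20964 had 1286 and 597.5 in Viviez against 2684 and 5132 in N. montana, a log2 fold change of -2.05 ± 0.57 (SE, edgeR adjusted p = 0.0343). Ncfi_contig_18075 had 678.1 and 617.9 in Viviez against 1199 and 1480 in N. montana, a log2 fold change of -1.05 ± 0.32 (SE, edgeR adjusted p = 0.0449). The libraries of Viviez and N. montana did not overlap in any of these contigs. This was a condition for naming them here, except for Ncfi_contig_997, which was named for its high mean.

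Without Viviez individual 2 the calls of Ncfi_contig_924, Ncfi_contig_997, Ncfi_contig_20964 and Ncfi_contig_18075 were lost (edgeR adjusted p of 0.0729, 0.0688, 0.175 and 0.219), and all of these except Ncfi_contig_997 were also lost without Viviez individual 1 (0.0965, 0.0665 and 0.171) and without 1 or both of the N. montana individuals (0.0718 to 0.14). The log2 fold change of Ncfi_contig_20964 was -2.70 without Viviez individual 1. Of the 10 members called, 3 and 2 were left without Viviez individuals 1 and 2, and 7 and 6 were called without N. montana individuals 1 and 2.

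In a single contrast of the hyperaccumulator against the mean of both other plants, 14 members (18.7%) were higher in firmiensis. Over all tested contigs 19.1% were called, 12.8% higher and 6.3% lower. No member was called lower in edgeR, with 0 lower at an unadjusted p under 0.05 and 0 lower with DESeq2, beside 43 higher in DESeq2. Here too, the shares over all tested contigs for unadjusted p and DESeq2 were not worked out. The median log2 fold change was 0.80, against 0.04 over all tested contigs, and 70 members lay above 0, against 51.8% of all tested contigs. Ncfi_contig_13020 had 3612 and 2467 normalised CPM in firmiensis leaves, 1067 and 946.8 in Viviez leaves and 582.4 and 989.4 in N. montana leaves. The contrast gave a log2 fold change of 1.77 ± 0.33 (SE, edgeR adjusted p = 0.0181). Ncfi_contig_25216 had 3408 and 2306 in firmiensis leaves, 1118 and 1019 in Viviez leaves and 506.0 and 932.2 in N. montana leaves, a log2 fold change of 1.70 ± 0.34 (SE, edgeR adjusted p = 0.0227). In both contigs each firmiensis library lay above all 4 others, and such a lack of overlap was a condition for naming them here. Without firmiensis individual 1 or either Viviez individual both calls were lost (edgeR adjusted p from 0.066 to 0.0917) and 0 members were called in edgeR (17, 26 and 24 at an unadjusted p under 0.05), and 7 were called without N. montana individual 1.

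**Figure D3:**
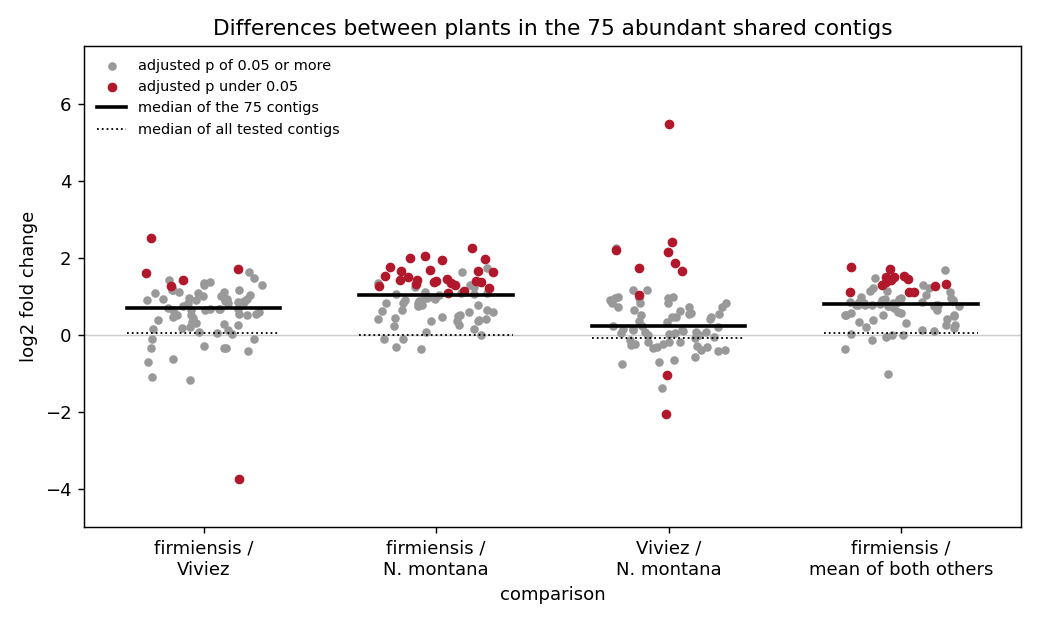
Log2 fold change of each of the 75 contigs in 4 comparisons, the plant named first over the plant named second. Points in red passed an edgeR adjusted p of 0.05, solid lines are medians of the 75 contigs (0.68, 1.03, 0.22 and 0.80) and dotted lines medians of all tested contigs. All called points lie above 0 in firmiensis against N. montana and against the mean of both others.

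Counting the 3 pairs of plants, 44 members passed in none, 20 in 1 and 11 in 2 pairs. A member that passed in none is not thereby shown to be equal among plants: the median SE of the members' log2 fold changes was 0.37 in each pair.

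In firmiensis and in N. montana most members differed in one direction between the 2 individuals. In firmiensis 65 of 75 members were higher in individual 1, with a median log2 ratio of individual 1 to individual 2 of 0.49, against -0.01 over the tested contigs with reads in both. In N. montana 56 of 75 were higher in individual 2, with a median log2 ratio of -0.30 against 0.02. In Viviez 47 were higher in individual 1, with a median of 0.05 against 0.02. Scaled to library totals, 60 members were higher in firmiensis individual 1, 53 in Viviez individual 1 and 60 in N. montana individual 2. Other contigs with a mean of at least 500 normalised CPM over the 6 libraries, 134 in number, were higher in individual 1 in 91 cases for firmiensis, 76 for Viviez and 67 for N. montana. With 1 library per individual these differences have no replicate check.

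The spread between individuals of a plant was narrower in Viviez. The members' median absolute log2 ratio was 0.49 between the firmiensis individuals, 0.19 between those from Viviez and 0.41 between those of N. montana, against 0.45, 0.32 and 0.42 over all tested contigs with reads in both. A difference of at least 2-fold between individuals was found for 7 members of firmiensis, 2 of Viviez and 5 of N. montana, that is 9.33%, 2.67% and 6.67% of the set, against 22.0%, 15.4% and 20.6% of all tested contigs with reads in both. Among the 134 other contigs with a mean of at least 500 normalised CPM the shares were 14.2%, 7.46% and 20.1%. High counts carry little counting error, and the rule leaves out contigs that fall low in 1 individual. Lower shares among the members therefore follow in part from how they were chosen, and nothing is read from them. With library totals, 3 firmiensis members differed at least 2-fold. The widest was that of Ncfi_contig_1243, with 3223 and 641.2 normalised CPM in N. montana, a ratio of 5.03, beside 3860 and 4268 in firmiensis and 8269 and 10275 in Viviez. Ncfi_contig_702 had 838.0 and 2380 in firmiensis, a ratio of 2.84, and 1403 and 940.8 in Viviez leaves and 652.2 and 662.1 in N. montana leaves. Ncfi_contig_326 had 1527 and 608.7 in N. montana, a ratio of 2.51, beside 716.6 and 923.3 in firmiensis and 544.4 and 711.1 in Viviez. None of these 3 contigs passed the threshold in any of the 4 comparisons. Their SEs in firmiensis against Viviez were 0.75, 0.52 and 0.47, above the members' median of 0.37. That follows in part from how they were picked, so nothing is read from the lack of calls.

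**Figure D4:**
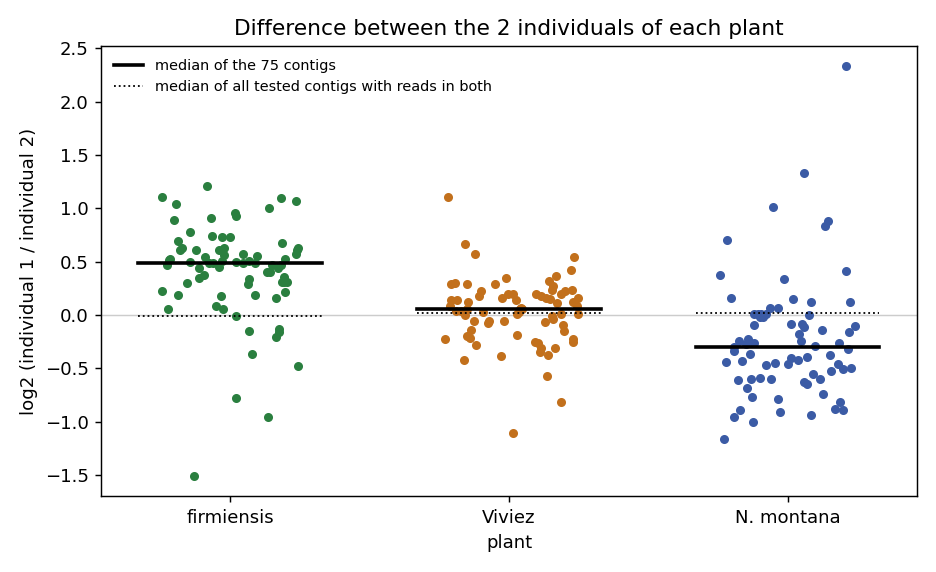
Log2 ratio of individual 1 to individual 2 for each of the 75 contigs in each plant, with the median of the 75 contigs (solid, 0.49, 0.05 and -0.30) and of all tested contigs with reads in both individuals (dotted). Most firmiensis points lie above 0 and most N. montana points below it.

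The likeness of the members' order by read level varied between pairs of libraries. Over the 75 contigs, Spearman's rho between libraries was 0.718 to 0.947 for individuals of the same plant. It was 0.695 to 0.783 for firmiensis with Viviez, 0.545 to 0.756 for firmiensis with N. montana and 0.513 to 0.569 for Viviez with N. montana. These values are across contigs, which are not independent replicates, and all members share the lower limit of 500 CPM. The lowest value within a plant, 0.718, was that of the 2 N. montana individuals and lay below some values between plants.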

How the data were processed

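The authors deposited unnormalised read counts for each contig, per the file headers, 1 column for each of 6 field leaf libraries (strand-specific polyA RNA, TruSeq Stranded mRNA, per the labels' protocols). The assembler, aligner and counter were not given in the sources used. Of 41843 contigs listed, 2 with empty cells were left out. The 4 hydroponic libraries were not analysed here, and 0 columns belonged to another series. Members were found from unscaled CPM over library totals. Tests on the counts used edgeR 4.0.16 in R 4.3.3 (filterByExpr, TMM, glmQLFit, glmQLFTest) in 1 fit of all 6 libraries with a coefficient per plant, 3 residual degrees of freedom, and a threshold of 0.05. DESeq2 1.42.0, other scalings and filters, and leaving out each library were alternatives. The procedure was tested on simulated data: no recovered contig had the wrong direction, but the share of false calls exceeded the adjusted threshold in every simulated comparison. Named contigs are the 5 highest by mean, up to 2 called higher and 2 called lower per comparison without overlap between groups, the 3 most even, the 3 with the largest ratio between individuals, and the 2 nearest the threshold on each side. Ncfi_contig_997 in Viviez against N. montana was added because it is among the 5 highest. Members and lists were chosen with earlier results of these data known. Lists of leaf and metal genes could not be searched for, because the contigs carry no gene names. Reads shared by near-identical contigs were not resolved. SDs and SEs include the spread between individuals, and the counting error given for the lowest member is Poisson error only.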

Additional observations from a re-analysis of the deposited data

How the results depend on the processing

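The number of members was 198 at 250 CPM, 24 at 1000 CPM and 70 with TMM-scaled CPM (68 of them members), and 75 to 89 over 5 libraries. The members' share of reads in firmiensis, Viviez and N. montana was 27.3%, 25.1% and 18.0% at 250 CPM and 9.98%, 12.3% and 5.68% at 1000 CPM. It was 18.5% to 21.4%, 18.4% to 19.8% and 11.0% to 11.9% over 5 libraries, and 13.1% in Viviez without Ncfi_contig_1579, an alternative chosen after seeing the data. Member calls are given in the order firmiensis against Viviez, firmiensis against N. montana, Viviez against N. montana, and firmiensis against the mean of both. DESeq2 called 29, 49, 21 and 43 members. For DESeq2 and the other alternative fits, the share of all tested contigs called was not worked out. Members set at 250 CPM gave 16, 60, 38 and 36 calls (8.08%, 30.3%, 19.2% and 18.2%), and those at 1000 CPM gave 1, 6, 4 and 2 (4.17%, 25%, 16.7% and 8.33%). With the replicate block, the individual number of the labels as a term, there were 0, 7, 6 and 4 calls (19, 30, 13 and 31 at an unadjusted p under 0.05). The labels do not say that the number pairs individuals, and over all tested contigs the log2 ratios of individual 1 to 2 correlated between plants at 0.03 (firmiensis with Viviez), -0.09 (firmiensis with N. montana) and -0.07 (Viviez with N. montana), and over the 75 members at 0.33, -0.42 and -0.32. Without 1 library the calls ranged from 0 to 8, 1 to 29, 2 to 11 and 0 to 14. The lone library of a plant is then assumed to vary like the others. Library totals in place of TMM gave 16 calls for firmiensis against N. montana, 3 firmiensis members at least 2-fold apart between individuals, and 21 members under 2-fold and 14 at 4-fold or more over the libraries. Library totals shifted the log2 fold changes of all tested contigs by a median of -0.05, -0.30, -0.25 and -0.17. Of 228 recomputed fold changes of named contigs, 145 kept their call, 83 kept their direction without it, and 0 reversed. Each of these fold changes was called in the main fit with no overlap between the groups. That 0 reversed follows largely from how they were picked, and nothing is read from it. The spread between individuals cannot be recomputed without a library.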
